A study of Canis lupus familiaris with 18 samples.

Results

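Genes of the adipocyte and of lipid storage were followed in the right heart of dogs with and without heart failure (HF). The members are SCD, RBP4, DGAT2, FABP4, ADIPOQ, PLIN1, CIDEC, LEP and PPARG. A probe set, the group of short probes that measures a transcript on the array, was a member if the platform annotation gave it only one of these symbols. This gave 17 of 42924 probe sets, and 15 of them passed a filter on low signal that kept 25752. All 9 genes were measured, of 10988 genes tested, and each gene is represented by its probe set of highest mean signal unless another is named.

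The study hybridised total RNA of right atrium (RA) and right ventricle (RV) to 18 Affymetrix Canine_2 arrays, 3 in each of 6 groups. The groups were RA and RV of control dogs, of dogs with early HF and of dogs with late HF. HF was produced by ventricular tachypacing, in which an implanted pacemaker drives the ventricle too fast without pause, during 2 weeks for early HF and during 5 weeks for late HF. The protocol text gives 2 to 3 and 5 to 6 weeks as ranges, and adult mongrels or beagles, with no breed or animal given for a sample. All tissue was a small snap-frozen piece of a chamber wall, so each array holds the RNA of every cell type in that piece. The labels call the replicates biological but name no animal, and p-values here measure the spread between these samples.

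White fat cells store triglyceride in a large lipid droplet and secrete hormones. The nuclear receptor PPARG drives their differentiation, DGAT2 makes triglyceride from diacylglycerol, SCD makes the monounsaturated fatty acids that DGAT2 prefers as substrate, and PLIN1 and CIDEC coat and enlarge the droplet. ADIPOQ (adiponectin), LEP (leptin) and RBP4 (retinol binding protein) are secreted into blood, while FABP4 carries fatty acids inside fat cells and also inside capillary endothelium and macrophages. The heart carries fat cells mainly under the epicardium, around the coronary vessels and in the atrioventricular groove.

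The deposited log2 signals had array medians between 5.65 and 5.75, and the 3' minus 5' signal of the GAPDH control probe sets, a sign of RNA integrity, lay between 0.64 and 1.125. Genes of all cardiac myocytes (7 of 7 on the list tested) averaged between 12.3 and 13.16 on every array. The library labelled RA late 3 carried the chamber markers of RV. When 1458 probe sets that separate the chambers were scaled so that RV controls averaged 0 and RA controls 1, it scored 0.156. The remaining RA arrays with HF scored 0.863 to 0.991, and RV arrays -0.053 to 0.345. Results that rest on it are given with and without it, a choice made after the data were seen.

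The members varied to very different degrees, and only PLIN1 varied less within groups than the median probe set. ADIPOQ ranged over 39.7-fold across the 18 arrays, RBP4 over 17.4-fold, FABP4 over 10.3-fold, DGAT2 over 6.11-fold, SCD over 5.90-fold and CIDEC over 4-fold. LEP ranged over 2.01-fold, PPARG over 1.85-fold and PLIN1 over 1.36-fold. Much of this range lay between replicates of a group. The SD within groups was 1.51 log2 units for ADIPOQ, 1.00 for RBP4, 0.94 for FABP4, 0.77 for DGAT2 and 0.57 for CIDEC, against a median of 0.15 over all probe sets tested. These put ADIPOQ at percentile 99.9 of the tested probe sets, RBP4 and FABP4 at 99.7, DGAT2 at 99.4 and CIDEC at 98.6. SCD was at percentile 94.6 (SD 0.36), PPARG at 89.3 (SD 0.29), LEP at 82.1 (SD 0.24) and PLIN1 at 23.0 (SD 0.12).

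**Figure D1:**
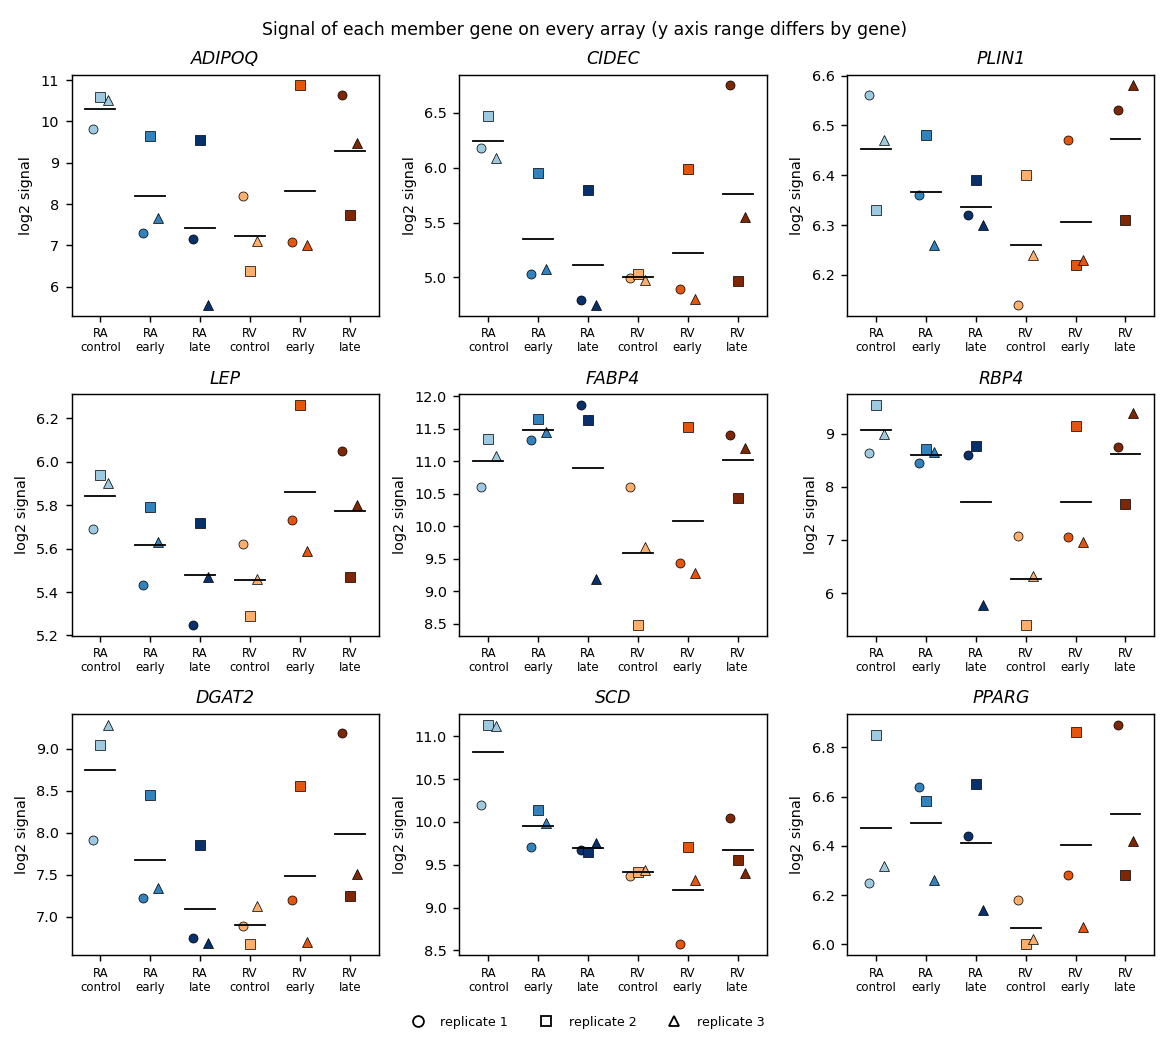
Log2 signal of each of the 9 genes on every array, by chamber and stage, with a bar at the mean of each group and a symbol for the replicate number. In RA and RV early HF the array of replicate 2 is the highest for 8 of 9 genes, and PLIN1 spans only 6.14 to 6.58.

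Among the secreted hormones, ADIPOQ showed the widest spread. In RA its signals were 9.81, 10.58 and 10.51 in controls, 7.29, 9.65 and 7.67 in early HF and 7.16, 9.54 and 5.56 in late HF, the last of these in the library labelled RA late 3. In RV they were 8.19, 6.39 and 7.10 in controls, 7.07, 10.87 and 7.01 in early HF and 10.64, 7.74 and 9.47 in late HF. The 3 RA controls were uniformly high, the 3 RV controls were low, and every HF group held at least 1 high and 1 low array. In bulk tissue, fewer cells of a type and less RNA per cell cannot be told apart. LEP, the satiety hormone of fat, lay between 5.25 and 6.26 on all arrays, close to the filter limit of 5.31, and 2 arrays were below that limit. Its highest signals, 6.26 and 6.05, were on the same arrays as the highest of ADIPOQ, RV early 2 and RV late 1.

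The droplet proteins did not behave alike. CIDEC, which fuses lipid droplets, had RA signals of 6.18, 6.47 and 6.09 in controls, 5.03, 5.95 and 5.08 in early HF and 4.79, 5.80 and 4.75 in late HF. In RV they were 4.99, 5.03 and 4.98 in controls, 4.89, 5.99 and 4.80 in early HF and 6.75, 4.97 and 5.55 in late HF. CIDEC was below the filter limit on 10 of 18 arrays, among them all 3 RV controls, so its low values have no firm order and its differences against them may be understated. PLIN1, the droplet coat protein of fat cells, ranged over 6.33 to 6.56 in RA controls and 6.14 to 6.40 in RV controls, with 6.58 as its highest value, in RV late 3. Another PLIN1 probe set ranged from 5.99 to 6.66 and correlated with it at r = 0.42 over 18 arrays, given as a description. A flat PLIN1 transcript and probe sets that respond poorly cannot be told apart here.

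Of the carriers, FABP4 had RA signals of 10.60, 11.34 and 11.08 in controls, 11.32, 11.65 and 11.45 in early HF and 11.86, 11.63 and 9.19 in late HF. In RV it had 10.60, 8.49 and 9.68 in controls, 9.43, 11.52 and 9.29 in early HF and 11.41, 10.44 and 11.20 in late HF. Thus FABP4 was high on all RA arrays except the library labelled RA late 3, and uneven in RV. RBP4, the retinol carrier of plasma, had RA signals of 8.64, 9.53 and 9 in controls, 8.44, 8.71 and 8.65 in early HF and 8.59, 8.77 and 5.78 in late HF. In RV it had 7.07, 5.41 and 6.33 in controls, 7.05, 9.15 and 6.96 in early HF and 8.75, 7.68 and 9.39 in late HF. All RV controls lay below all RA controls, and all RV late HF arrays lay above all RV controls. A second RBP4 probe set followed it (r = 0.87 over 18 arrays) over a narrower range, 5.75 to 7.96.

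The triglyceride enzyme DGAT2 had RA signals of 7.91, 9.04 and 9.28 in controls, 7.22, 8.45 and 7.34 in early HF and 6.75, 7.85 and 6.69 in late HF. In RV it had 6.89, 6.67 and 7.13 in controls, 7.20, 8.56 and 6.70 in early HF and 9.19, 7.24 and 7.51 in late HF. Outside RA controls DGAT2 was highest on RA early 2, RV early 2 and RV late 1, where ADIPOQ was also high. On RA late 2 and RV late 3, where ADIPOQ was 9.54 and 9.47, DGAT2 was only 7.85 and 7.51. SCD, the desaturase, had RA signals of 10.20, 11.13 and 11.12 in controls, 9.71, 10.14 and 9.99 in early HF and 9.67, 9.65 and 9.75 in late HF. In RV it had 9.37, 9.42 and 9.44 in controls, 8.57, 9.71 and 9.32 in early HF and 10.05, 9.56 and 9.40 in late HF. For SCD the library labelled RA late 3 did not stand apart, and the RA arrays of both HF stages lay below all RA controls. PPARG, the receptor that governs many of these genes, ranged over 6.25 to 6.85 in RA controls and 6 to 6.18 in RV controls. Its HF arrays lay between 6.07 and 6.89, so they spanned nearly the whole range of the controls.

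When the 6 group means were put in order for each gene, neighbouring groups overlapped on their arrays for every member, with the exception of SCD, where RA control (mean 10.82, SD 0.53) stood clear above RA early HF (9.95, SD 0.22). RA control had the highest mean for ADIPOQ, RBP4, DGAT2, CIDEC and SCD. RV control had the lowest mean for every member but SCD, whose lowest mean, 9.20 (SD 0.58), was in RV early HF.

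Healthy chambers were compared to ask which genes of fat and lipid storage set the atrium apart. SCD was higher in RA controls, by 1.41 log2 units over RV controls (SE 0.26, 2.65-fold, adjusted p = 0.00831, limma with Benjamini-Hochberg adjustment over all probe sets tested). RBP4 was higher by 2.79 (SE 0.70, 6.90-fold, adjusted p = 0.0423). These were 2 of 9 members, where 2.69% of all genes tested passed in this comparison, 1.62% with RA higher and 1.07% with RA lower. The other differences did not pass: ADIPOQ 3.07 (SE 1.05, adjusted p = 0.135), DGAT2 1.85 (SE 0.54, adjusted p = 0.0793), FABP4 1.42 (SE 0.66, adjusted p = 0.299), CIDEC 1.25 (SE 0.40, adjusted p = 0.109), PPARG 0.41, LEP 0.39 and PLIN1 0.19. All 9 differences were positive, with a median of 1.41, where the median of all genes was -0.02. For 7 members the RA arrays lay above all RV arrays, which held for 12.8% of genes, and PLIN1 and FABP4 were the exceptions.

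The SCD and RBP4 calls had limits of number. An exact permutation test of either gene, two-sided, gave p = 0.1, the smallest that 3 arrays against 3 allow. With the chambers paired by replicate number, SCD kept its call (adjusted p = 0.00352), RBP4 lost it (adjusted p = 0.061) and DGAT2 gained it (adjusted p = 0.0391). RBP4 lost its call without any of the 6 control arrays, at adjusted p between 0.0591 and 0.202, and SCD lost it without RA control 3 (adjusted p = 0.0547). The library labelled RA late 3 bears on this comparison through the pooled variance alone, and leaving it out gave RBP4 an adjusted p of 0.00339. The second RBP4 probe set differed by 1.30 (SE 0.40, adjusted p = 0.0943) with no overlap of arrays. The second SCD probe set, with signals between 5.87 and 6.74, differed by 0.18 (SE 0.11, adjusted p = 0.458), so the SCD call belongs to 1 of its probe sets. Likewise, of the DGAT2 probe sets that passed the filter, the further 2 differed by 0.19 and -0.02 between RA and RV controls, while the second ADIPOQ probe set differed by 2.83 (SE 0.95, adjusted p = 0.125).

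**Figure D2:**
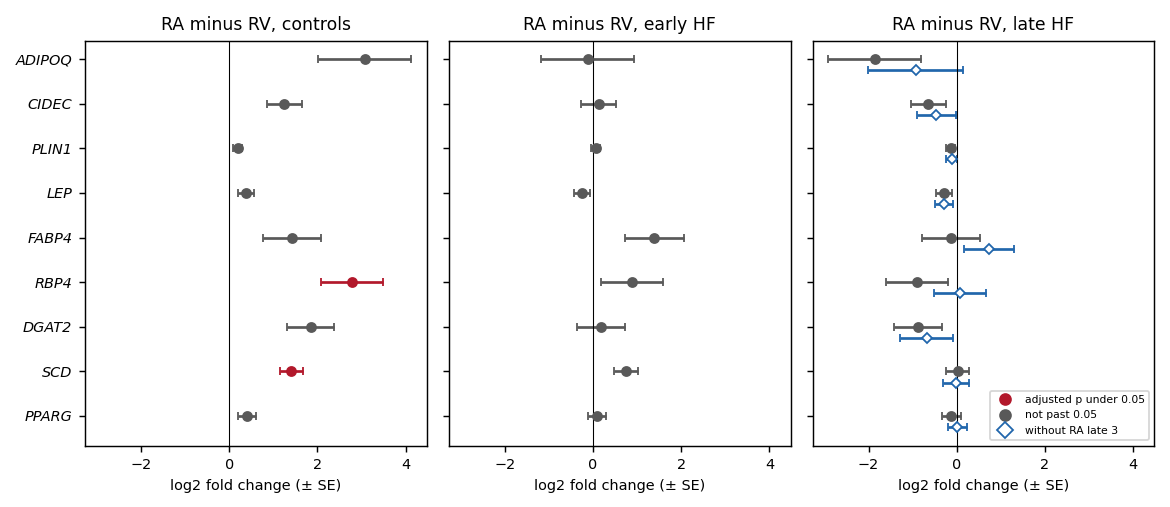
RA minus RV log2 fold change of each gene, with its SE, in controls, early HF and late HF, from the fit over all 18 arrays. Red points passed an adjusted p of 0.05 (SCD and RBP4 in controls), and open diamonds leave out the library labelled RA late 3.

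Markers of other cells differed between the same control samples, and their part in these differences was not tested. Of 9 fibroblast markers tested (of 10 listed), 2 were higher in RA, and the list averaged 10.05 to 10.27 in RA controls and 9.13 to 9.36 in RV controls. Atrial myocyte markers were higher in 7 of 7 tested (of 10 listed), averaging 11.09 to 11.20 in RA controls and 7.99 to 8.66 in RV controls. None of 10 capillary endothelial markers passed by limma, with list averages of 7.47 to 7.65 in RA controls and 7.57 to 7.76 in RV controls. Of 9 macrophage markers tested (of 10 listed) none passed, with averages of 6.92 to 7.03 in RA controls and 6.80 to 6.96 in RV controls. Mesothelial and epicardial markers averaged 6.03 to 6.17 in RA controls and 6.03 to 6.13 in RV controls, but only 3 of 11 were tested. Of 7 ventricular myocyte markers tested (of 8 listed), 3 were lower in RA, with averages of 7.61 to 8.21 in RA controls and 10.49 to 10.65 in RV controls. Of 4 nerve and Schwann cell markers tested (of 6 listed), 1 was lower in RA.

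The label of adipocyte genes held for only some markers of that cell. CIDEA, a droplet protein related to CIDEC, had signals of 7.67, 8.79 and 8.13 in RA controls, against 6.78, 5.99 and 6.46 in RV controls, a difference of 1.79 (SE 0.77, adjusted p = 0.255). In HF it reached 8.67 in RA early 2, 9.10 in RV early 2 and 8.89 in RV late 1, arrays on which ADIPOQ was also high. The other genes on the adipocyte marker list did not follow a common pattern. Which cells of the chamber wall gave their signal was not tested. CFD, the adipsin of fat cells, had 9.91, 9.94 and 9.82 in RA controls, against 9.54, 9.45 and 9.31 in RV controls (0.46, SE 0.14, adjusted p = 0.0887). AQP7, a glycerol channel, and ACSL1, which activates fatty acids, had differences of the opposite sign, -0.76 (SE 0.21, adjusted p = 0.0581) and -0.92 (SE 0.31, adjusted p = 0.122), also with no overlap of arrays. GPD1 differed by -0.21, LPL by -0.40, RETN by 0.15, THRSP by 0.14, LIPE by -0.05, PLIN4 by -0.04 and PCK1 by 0.01, none passing, and PCK1 was below the filter limit on 4 of 18 arrays. THRSP was below it on all 3 RV control arrays and 1 of 3 RA control arrays, so its 0.14 is not a firm ratio. Of 11 other adipocyte markers tested (of 16 listed), 0 passed between RA and RV controls by limma (4 at an unadjusted p under 0.05), with a median of -0.04. Under that unadjusted p were 16% of all genes.

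Genes that make fatty acids were among those that differed between healthy chambers, as SCD did. Of 14 genes of fatty acid synthesis and desaturation tested (of 17 listed), 3 were higher in RA controls and 0 lower: ACLY, which makes cytosolic acetyl-CoA, by 1.09 (SE 0.25, adjusted p = 0.0245), ME1, which makes NADPH, by 0.97 (SE 0.24, adjusted p = 0.0402), and the fatty acid synthase FASN by 0.58 (SE 0.14, adjusted p = 0.0319). FASN had 7.21, 7.55 and 7.63 in RA controls, against 6.83, 6.89 and 6.92 in RV controls, with no overlap. SREBF1, a transcription factor that drives this pathway, differed by 0.05, and ACACA, which makes malonyl-CoA, by -0.01, neither passing. The list's median was 0.03, with 8 of 14 positive, beside -0.02 for all genes.

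Triglyceride synthesis, fatty acid uptake and droplet genes gave calls in both directions. Of 9 triglyceride synthesis genes tested (of 13 listed), AGPAT2, which makes phosphatidic acid, was lower in RA controls (-0.61, SE 0.16, adjusted p = 0.0482) and 0 were higher, with a median of -0.11. DGAT1, the other enzyme of the DGAT2 step, differed by -0.11 and did not pass. Of 6 genes of fatty acid binding and uptake tested (of 8 listed), 2 were lower in RA controls: the transporter CD36 (-1.03, SE 0.17, adjusted p = 0.00413) and FABP3, the fatty acid carrier of heart muscle (-1.003, SE 0.24, adjusted p = 0.0337). FABP3 had 11.30, 11.65 and 11.95 in RA controls, against 12.81, 12.62 and 12.48 in RV controls, while the fat cell carrier FABP4 differed by 1.42 in the opposite direction without passing. Of 11 genes of droplet coat and assembly tested (of 14 listed), HSD17B13, a droplet enzyme known from liver, was higher in RA controls at 4.04 (SE 0.81, adjusted p = 0.0124) and 0 were lower. Its signals were 9.33, 7.85 and 10.10 in RA controls, against 4.97, 4.71 and 5.49 in RV controls. There 2 of 3 were below the filter limit, so 4.04 rests on signals near or below that limit and is not a firm ratio. PLIN2, the droplet coat of muscle and most other cells, had 7.99, 7.76 and 7.25 in RA controls, against 9.24, 8.40 and 8.12 in RV controls, and did not pass (-0.92, SE 0.28, adjusted p = 0.0916).

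Receptors and regulators gave 2 further calls in controls. ADIPOR2, a receptor for adiponectin, was lower in RA controls by limma (-0.98, SE 0.25, adjusted p = 0.0491), with 9.03, 9.07 and 8.73, against 10.39, 9.65 and 9.72 in RV controls. It was the only call among 6 tested adipokine receptors and other adipokines (of 11 listed). ZNF423, a transcription factor of fat cell precursors, was higher in RA controls (1.33, SE 0.21, adjusted p = 0.00275), the only call among 8 tested PPARG partners and adipogenic regulators (of 13 listed). None of 10 tested genes of retinoid transport and metabolism (of 16 listed), the pathway of RBP4, and none of 5 tested lipolysis genes (of 8 listed) passed in controls. In all, 9 of 71 distinct genes on the 9 lists passed, beside the 2.69% of all genes. When any 1 of the 6 control arrays was left out, 2 to 6 of these calls were kept, and CD36 and ZNF423 were the genes that kept theirs each time. With the chambers paired by replicate number AGPAT2 lost its call (adjusted p = 0.0663), while PLIN2 (adjusted p = 0.0337), MOGAT1 (-0.70, adjusted p = 0.0171) and ACSL1 (adjusted p = 0.0438) gained one.

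**Figure D3:**
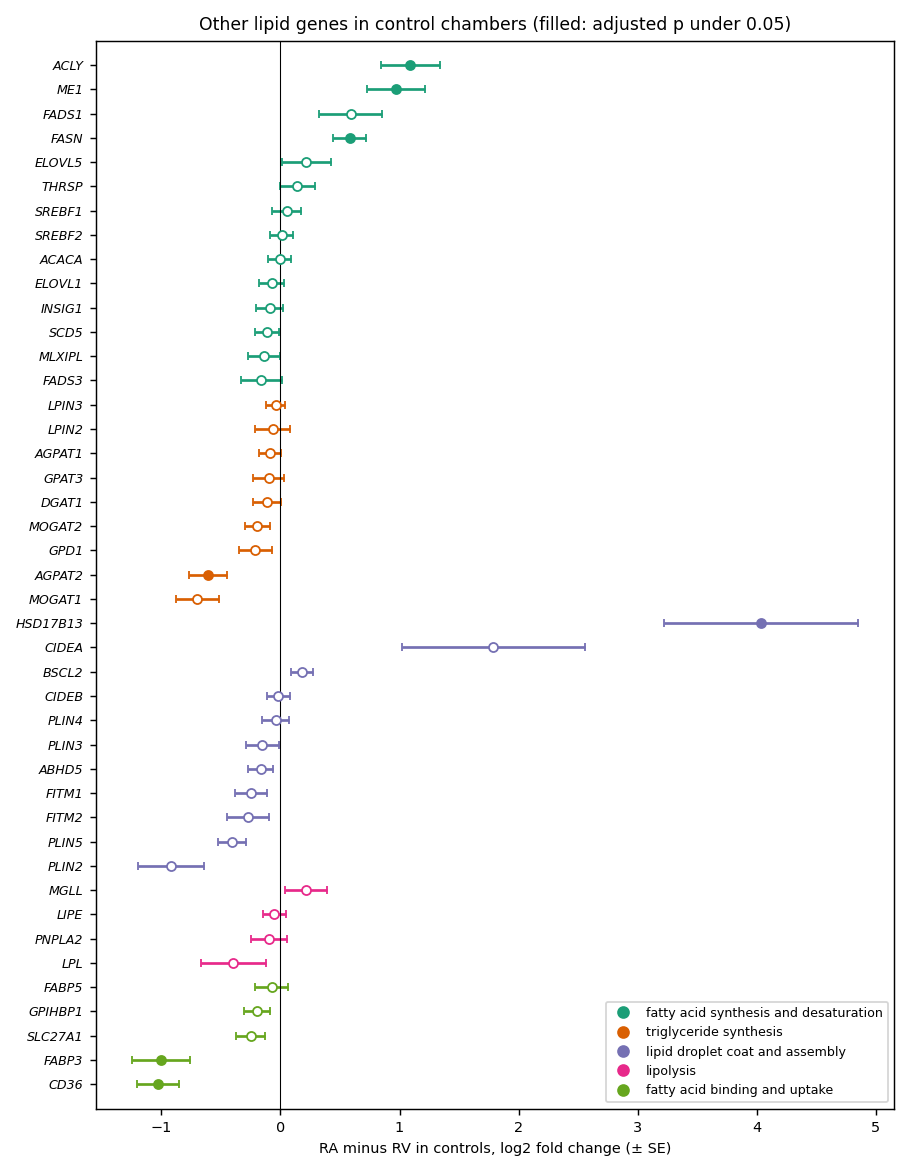
RA minus RV log2 fold change in controls, with its SE, for the tested genes of 5 lipid pathways, sorted within each pathway. Filled points passed an adjusted p of 0.05: ACLY, ME1, FASN and HSD17B13 to the right of 0, and AGPAT2, FABP3 and CD36 to the left.

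Early HF in RA was set against RA controls, the same controls that serve the late HF comparison. No member passed (0 of 9 by limma, 2 at an unadjusted p under 0.05), where 0.746% of genes did. The share of all genes under that unadjusted p was 13%. SCD differed by -0.87 (SE 0.26, adjusted p = 0.128), ADIPOQ by -2.10 (SE 1.05, adjusted p = 0.398), DGAT2 by -1.07 (SE 0.54, adjusted p = 0.398) and CIDEC by -0.89 (SE 0.40, adjusted p = 0.323). RBP4 differed by -0.46 and LEP by -0.23, whereas FABP4 differed by 0.47 and PPARG by 0.02. In all, 7 of 9 differences were negative, with a median of -0.46, against -0.02 for all genes. The early HF arrays lay below all control arrays for 3 members, SCD, ADIPOQ and CIDEC, as they did for 9.45% of genes.

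Late HF in RA gave 0 of 9 calls by limma (4 at an unadjusted p under 0.05), where 0.0364% of genes passed. The share of all genes under that unadjusted p was 9.97%. ADIPOQ differed by -2.88 (SE 1.05, adjusted p = 0.319), DGAT2 by -1.65 (SE 0.54, adjusted p = 0.27), RBP4 by -1.34 (SE 0.70, adjusted p = 0.473), CIDEC by -1.13 (SE 0.40, adjusted p = 0.303) and SCD by -1.13 (SE 0.26, adjusted p = 0.155). All 9 differences were negative, with a median of -1.13, beside 0.00 for all genes. The second SCD probe set differed by -0.42 (SE 0.11, adjusted p = 0.191). Late HF arrays lay below all controls for SCD, ADIPOQ, CIDEC and DGAT2, 4 members, as they did for 5.87% of genes. Without the library labelled RA late 3 the picture split: 7 of 9 were negative with a median of -0.38, and 0 passed (1.65% of probe sets did). SCD then differed by -1.16 (SE 0.30, adjusted p = 0.0591), ADIPOQ by -1.95 (SE 1.07, adjusted p = 0.335), DGAT2 by -1.44 and CIDEC by -0.95. RBP4 differed by only -0.38 without it, and FABP4 turned to 0.74, so the low RBP4 and FABP4 of late HF in RA rested on that library.

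Early HF in RV gave 0 of 9 calls by limma (1 at an unadjusted p under 0.05), where 0.105% of all probe sets passed. Under that unadjusted p were 8.34% of all genes. RBP4 differed by 1.45 (SE 0.70, adjusted p = 0.605), ADIPOQ by 1.09 (SE 1.05, adjusted p = 0.881), DGAT2 by 0.59 and FABP4 by 0.49. Without RV early 2, ADIPOQ differed by -0.19, FABP4 by -0.23, DGAT2 by 0.05 and RBP4 by 0.735, so 2 of these 4 turned negative without 1 array. Late HF in RV also gave 0 of 9 (3 at an unadjusted p under 0.05), where 0% of genes passed. Under that unadjusted p were 9.1% of all genes. RBP4 differed by 2.34 (SE 0.70, adjusted p = 0.428), ADIPOQ by 2.06 (SE 1.05, adjusted p = 0.573), FABP4 by 1.43 (SE 0.66, adjusted p = 0.535), DGAT2 by 1.08 (SE 0.54, adjusted p = 0.559), CIDEC by 0.76 and PPARG by 0.46. All 9 were positive, with a median of 0.76, against -0.01 for all genes. Without RV late 1 the differences were 1.38 for ADIPOQ, 0.48 for DGAT2, 0.26 for CIDEC, 0.28 for PPARG and 0.07 for SCD, while RBP4 was at 2.265. RV late HF arrays lay above all RV controls for RBP4, DGAT2 and PPARG, 3 members, as they did for 9.48% of genes. With RV controls and RV late HF fitted alone, RBP4 passed (adjusted p = 0.045), and without the library labelled RA late 3 in the fit its adjusted p was 0.0814.

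**Figure D4:**
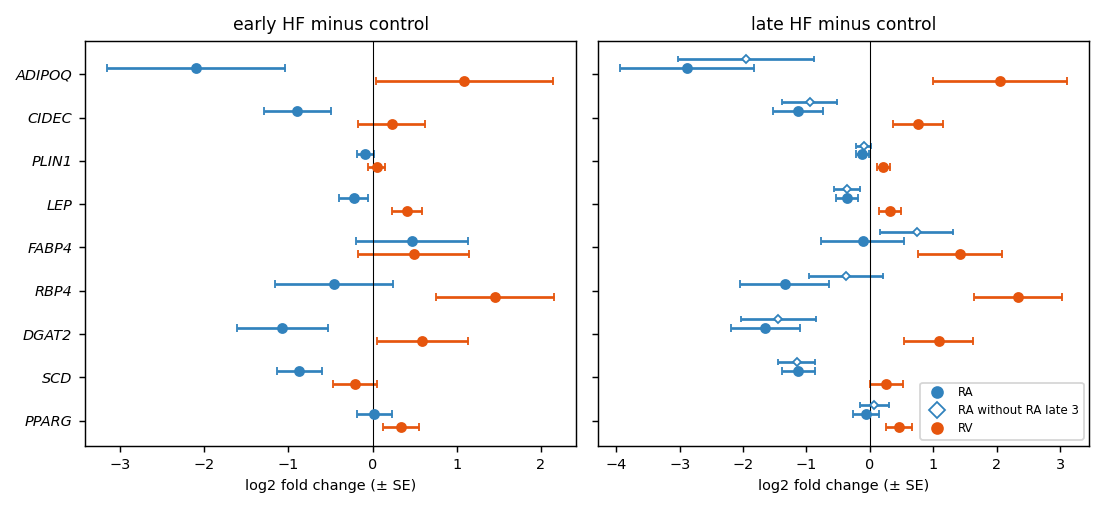
Log2 fold change of early and late HF against the control of the same chamber, with its SE, in RA (blue) and RV (orange). At the late stage all 9 RA points lie below 0 and all 9 RV points above it, and open diamonds show RA without the library labelled RA late 3. No point passed an adjusted p of 0.05.

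Late HF set against early HF gave 0 of 9 calls in either chamber by limma, where 0% of genes passed. At an unadjusted p under 0.05 there were 0 members in both, beside 7.74% of all genes in RA and 5.21% in RV. The members' median difference was -0.26 in RA and 0.49 in RV. Without the library labelled RA late 3 the RA median was -0.01, with ADIPOQ at 0.15 and RBP4 at 0.08.

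The chambers were also compared within each stage of HF. In early HF, RA against RV gave 0 of 9 calls (1 at an unadjusted p under 0.05), where 5.60% of genes passed by limma. Under that unadjusted p were 18.1% of all genes. SCD differed by 0.75 (SE 0.26, adjusted p = 0.117), FABP4 by 1.39 (SE 0.66, adjusted p = 0.268), RBP4 by 0.88 and ADIPOQ by -0.11. With the chambers paired by replicate number at every stage SCD passed (adjusted p = 0.0457), as it did without RV early 2 (1.00, adjusted p = 0.0495). The second SCD probe set differed by only -0.03 in early HF (SE 0.11, adjusted p = 0.93), so these calls belong to 1 probe set. In late HF, RA against RV gave 0 of 9 (0 at an unadjusted p under 0.05), where 0.0273% of genes passed and 11% were under that unadjusted p. ADIPOQ differed by -1.86 (SE 1.05, adjusted p = 0.495), RBP4 by -0.89 and SCD by 0.02. Without the library labelled RA late 3 these were -0.93, 0.07 and -0.01.

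Whether the HF effect differed between the chambers was tested as the effect in RA minus that in RV. A negative value means that the RA minus RV difference was lower in HF than in controls. At the early stage 0 of 9 members passed (3 at an unadjusted p under 0.05), where 0% of genes did, and the median was -0.66. The share of all genes under that unadjusted p was 5.15%. At the late stage 0 of 9 passed (7 at an unadjusted p under 0.05), where again 0% of genes did, and the smallest adjusted p was 0.509. The share of all genes under that unadjusted p was then 7.3%. The late differences were -4.94 for ADIPOQ (SE 1.49, adjusted p = 0.534), -3.68 for RBP4 (SE 0.99, adjusted p = 0.509), -2.73 for DGAT2 (SE 0.76, adjusted p = 0.524), -1.89 for CIDEC (SE 0.56, adjusted p = 0.534) and -1.39 for SCD (SE 0.37, adjusted p = 0.509). Without the library labelled RA late 3 they were -4.01 for ADIPOQ, -2.71 for RBP4, -2.53 for DGAT2, -1.71 for CIDEC and -1.42 for SCD, and 0 passed. All 9 were negative at both stages, but these contrasts use the control arrays again, so they are no separate evidence from the control difference.

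Of the 71 genes tested on the 9 lists of other adipocyte and lipid genes, 0 passed for HF against control in either chamber by limma. At an unadjusted p under 0.05 there were 10 in RA early HF, 7 in RA late HF and 5 in RV at either stage. Of all genes, 13% were under that p in RA early HF, 9.97% in RA late HF, 8.34% in RV early HF and 9.1% in RV late HF. In early HF the chambers differed in 12 of the 71, where 5.60% of all genes passed. RA was lower for PLIN2 (-1.49, SE 0.28, adjusted p = 0.00729), for the lipoprotein lipase LPL (-1.09, SE 0.27, adjusted p = 0.0274), for ADIPOR2 (-1.06), for AQP7 (-0.87), for CD36 (-0.78), MOGAT1 (-0.66), THRSP (-0.63), AGPAT2 (-0.56) and FITM1 (-0.51). RA was higher for ZNF423 (1.19), ELOVL5, which lengthens fatty acids (0.75), and HSD17B13 (3.26). HSD17B13 was below the filter limit on all 3 RV early HF arrays, so its 3.26 rests on signals below that limit and is not a firm ratio. THRSP was below that limit on 2 of 3 RA early HF arrays, so its -0.63 is not a firm ratio either. When any 1 of the 6 early HF arrays was left out, 2 to 8 of the 12 calls were kept, and PLIN2 and ZNF423 were the genes that kept theirs each time. With the chambers paired, AGPAT2 lost its call (adjusted p = 0.0656), and ACSL1 (adjusted p = 0.0208) and ACLY (0.85, adjusted p = 0.0427) gained one. PLIN2 had 8.28, 7.92 and 7.55 in RA early HF, against 9.47, 9.39 and 9.37 in RV early HF, with no overlap.

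Markers of fibroblasts and macrophages differed among the RA arrays of early HF. In RA early HF, replicates 1, 2 and 3 had fibroblast list averages of 11.51, 10.70 and 11.23 and macrophage averages of 8.15, 7.39 and 7.57. ADIPOQ on the same arrays was 7.29, 9.65 and 7.67, highest where both averages were lowest. In RA controls, over a narrow range, replicate 2 also had the highest ADIPOQ, 10.58, and the lowest averages, 10.05 and 6.92. There the fibroblast averages kept the full order and the macrophage averages did not, with 7.03 in replicate 3 and 6.95 in replicate 1. For the fibroblast averages the other groups were not alike. In RA late HF ADIPOQ was lowest, 5.56, where the fibroblast average was lowest, in the library labelled RA late 3. Replicates 1 and 2 there had ADIPOQ of 7.16 and 9.54 with fibroblast averages of 11.23 and 10.46. In RV early HF ADIPOQ spanned 7.01 to 10.87 while the fibroblast averages were 9.86, 9.75 and 9.64. In RV controls ADIPOQ was lowest, 6.39, where the fibroblast average was lowest, 9.13. In RV late HF it was highest, 10.64, where that average was lowest, 10.05. RA controls had fibroblast averages of 10.05 to 10.27 and macrophage averages of 6.92 to 7.03. In RA late HF the fibroblast averages were 11.23, 10.46 and 9.55, and in RV late HF 10.05, 10.30 and 10.09. The averages of all cardiac myocyte genes were 12.43 to 12.83 in RA early HF, against 12.99 to 13.11 in RA controls, and 1 of 7 was lower. None of 9 fibroblast and none of 9 macrophage markers passed there. The part of these cells in the members' values was not tested.

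In 5 of the 6 groups a single array was the highest for 7 or 8 of the 9 members. In RA early HF, replicate 2 was the highest array for 8 of 9 members (all but PPARG), and in RV early HF replicate 2 was the highest for 8 (all but PLIN1). In RA late HF replicate 2 was the highest for 7, and replicate 3, the library that carried RV markers, the lowest for 7. In RV late HF replicate 1 was the highest for 7 and replicate 2 the lowest for 8. In RA controls replicate 2 was the highest for 7 and replicate 1 the lowest for 7. In RV controls it was less uniform, with replicate 1 the highest for 5, replicates 2 and 3 the highest for 2 each, and replicate 2 the lowest for 6. The labels do not say whether arrays of the same number come from the same dog.

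Pairs of members were then correlated over the 18 arrays, 36 pairs in all, with permutation p-values adjusted over the pairs. Some arrays may share a dog, so these p-values may be too small. The permutations also shuffled all 18 arrays without regard to the 6 groups, so differences between groups alone can give a small p. The r over deviations from the group means is given without a p. ADIPOQ and CIDEC had r = 0.92 (permutation p = 1e-05, the smallest that the permutations can give, adjusted p = 7.2e-05) and rho = 0.88 (p = 1e-05, adjusted p = 0.00018), with r = 0.93 without the 2 arrays farthest from the ADIPOQ median. Within RA r was 0.96, within RV 0.89 and over deviations from the group means 0.88. DGAT2 and CIDEC had r = 0.93 (p = 1e-05, adjusted p = 7.2e-05) and rho = 0.88 (p = 2e-05, adjusted p = 0.00018, permutation), 0.93 without the 2 farthest arrays, 0.91 within RA, 0.96 within RV and 0.89 over deviations from the group means. ADIPOQ, CIDEC and DGAT2 thus varied together in either chamber.

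RBP4 and FABP4 made another close pair, with r = 0.91 (permutation p = 1e-05, adjusted p = 7.2e-05) and rho = 0.73 (p = 0.00094, adjusted p = 0.00228). The r was 0.83 without the 2 arrays farthest from the RBP4 median, 0.84 within RA and 0.92 within RV, and 0.96 over deviations from the group means. ADIPOQ and FABP4 had r = 0.68 (permutation p = 0.00242, adjusted p = 0.00459) and rho = 0.62 (p = 0.0065, adjusted p = 0.013), but 0.44 within RA, 0.94 within RV and 0.83 over deviations from the group means, so the relation was weaker among RA arrays, a difference that was not tested. ADIPOQ and SCD had r = 0.60 (permutation p = 0.00588, adjusted p = 0.0106) and rho = 0.60 (p = 0.00941, adjusted p = 0.0169), 0.45 without the 2 farthest arrays, 0.72 within RA, 0.63 within RV and 0.50 over deviations from the group means. ADIPOQ and PLIN1 had r = 0.38 (permutation p = 0.121, adjusted p = 0.144) and rho = 0.28 (p = 0.251, adjusted p = 0.258), 0.48 without the 2 farthest arrays, 0.63 within RA, 0.22 within RV and 0.06 over deviations from the group means, and did not pass. PPARG followed ADIPOQ at r = 0.95 within RV and 0.45 within RA.

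**Figure D5:**
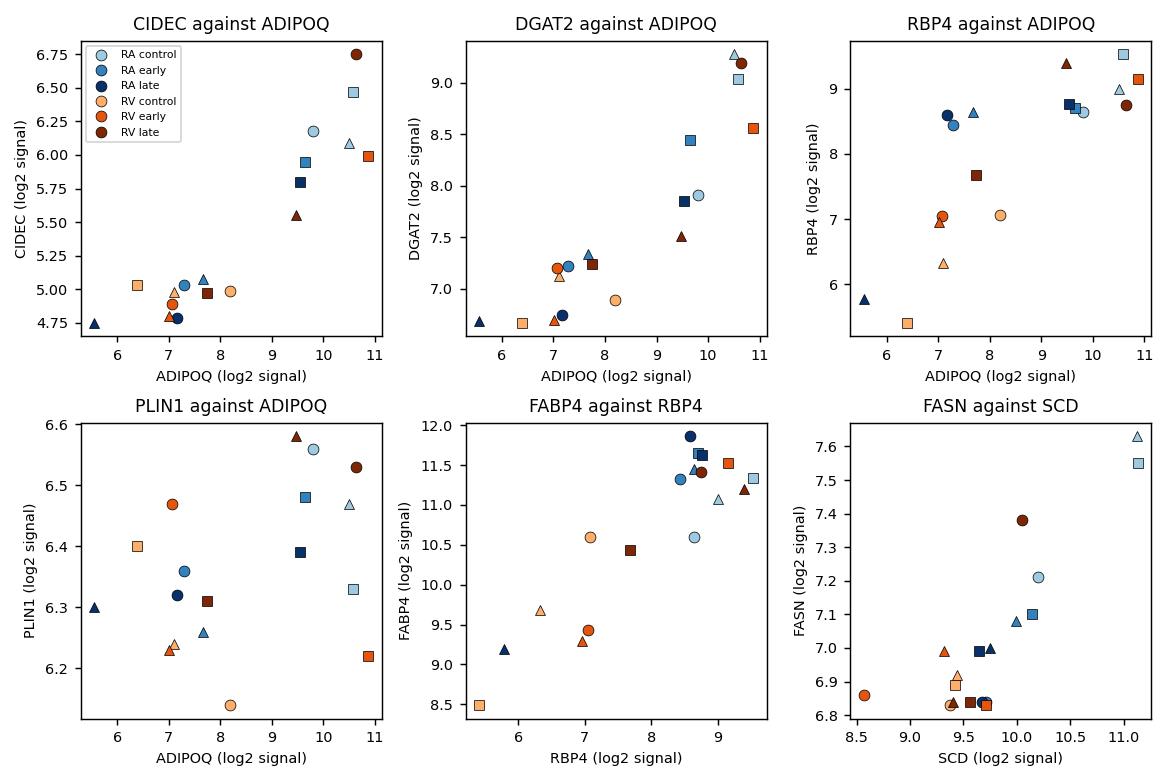
Log2 signals of pairs of genes on the 18 arrays, coloured by group, with the replicate number as symbol. CIDEC and DGAT2 climb with ADIPOQ (r = 0.92 and 0.91), FABP4 with RBP4 (r = 0.91) and FASN with SCD (r = 0.87), while PLIN1 is scattered against ADIPOQ (r = 0.38).

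The genes whose signals were most like a member's were named by Pearson's r over the 18 arrays among 10979 other genes, as a description. For RBP4 they were FRZB, a secreted Wnt antagonist (0.93), PYGL (0.88), MAOB (0.88), SNCG (0.87) and RPS23 (0.85). FRZB had a mean of 7.78 in RA controls and 6.18 in RV controls, and 7.85 in RV late HF. For SCD they were FAM162B (0.89), FASN (0.87), HMGCS1 (0.84), which makes a precursor of cholesterol, NRTN (0.82) and HAO2 (0.81). HMGCS1 had a mean of 8.75 in RA controls, against 8.14 in RV controls, and 8.28 and 8.43 in RA early and late HF. For the mean of standardised ADIPOQ, PLIN1 and CIDEC they were CIDEA (0.88), SDR16C5 (0.86), MAL (0.81), NNAT (0.81) and FRZB (0.80). For ADIPOQ alone, an anchor added after the data were seen, CIDEA was the nearest (0.96), followed by PLAAT3 (0.90), a phospholipase of fat cells, and SDR16C5 (0.86). Over deviations from the group means, the nearest to RBP4 were VIM (0.92), SNCG (0.90), FRZB (0.90), FBLN2 (0.88) and ANXA5 (0.87). The nearest to SCD were then MAN2A2 (0.89), SPTBN5 (0.85), NHP2 (0.84), TBC1D16 (0.81) and RECK (0.81), and FASN and HMGCS1 were not among them. On that measure SDR16C5 (0.85) and CIDEA (0.84) were again the nearest to the mean of ADIPOQ, PLIN1 and CIDEC.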

How the data were processed

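Total RNA of 18 samples was hybridised to Affymetrix Canine_2 arrays. The authors deposited a log2 signal for every probe set (the scale was read from the values). Per the submitters' processing notes the authors used MAS5, and no version, target or later normalization is given in the sources used here. No further normalization was applied, and no counts or depth exist for arrays, whose number limits the precision. Of 43035 probe sets, 111 controls and then the 40% of lowest mean signal (up to 5.31) were left out, which left 25752. This filter limit is a rank of mean signal and no detection limit, and how near it lies to background was not tested. The platform annotation gave 1 symbol to 29254 probe sets, several to 439 and none to 13231. A probe set that lists FABP4 with further genes is no member. The array was designed on an older genome build than the annotation, so no coordinates are given.

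Each probe set was fitted with limma 3.58.1 in R 4.3.3, with 6 group means over 18 arrays (12 residual degrees of freedom), a trended variance prior, two-sided tests and Benjamini-Hochberg adjustment over all 25752 probe sets. A call is an adjusted p under 0.05. Values are log2 fold changes with the SE of the fit, and 3 arrays a group. The members, the pathway and marker lists and the tests were chosen with earlier results of these data known. Genes outside the members are named where they passed within a list, where they were among the 5 most like a member, or, chosen after their values were seen, as SREBF1, ACACA, DGAT1, PLIN2 and the 11 other adipocyte markers, all of which are given. Leaving out arrays and pairing for the list genes were also added then. RA and RV arrays of the same number were checked for pairing by the correlation of their deviations from group means, which was 0.36, 0.24 and 0.42 in controls, 0.17, 0.26 and 0.15 in early HF and 0.05, -0.42 and 0.15 in late HF. Arrays of the same number from different stages reached 0.36 (RA early and RA late HF, replicate 1) and 0.27 (RV control and RA early HF, replicate 1). As these values are of like size, the check cannot settle whether the numbers pair chambers. All values come from the fit without a block unless a sentence names the pairing. The paired chamber fits blocked by number within every stage at once, so the late HF arrays entered their pooled variance. No array duplicated another, with at least 97.5% of values unequal in every comparison of arrays. Figures were drawn with matplotlib 3.10.9 in Python 3.11.15. Alternatives were the signal filter, quantile normalization, other probe sets, fits of the compared groups alone, array weights, the replicate block and leaving out each array.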

Additional observations from a re-analysis of the deposited data

How the results depend on the processing

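Between RA and RV controls, 2 members passed in the main analysis, 5 with only the groups compared and 5 under array weights of either kind (SCD, RBP4, DGAT2, ADIPOQ and CIDEC). The count lay between 0 and 2 when arrays were left out in turn. The replicate block gave 2 there (SCD and DGAT2) and 1 between RA and RV in early HF (SCD), where leaving out an array gave 0 to 1. For RA late HF against RA control, array weights of either kind gave 1 member (SCD, lower), against 0. For RV late HF against RV control, fitting only the groups compared gave 1 and array weights gave 1 (RBP4, higher), against 0. The default array weights stopped before convergence, and the weights estimated gene by gene were added after the data were seen. Of 1836 single-gene values under alternatives, 89 had the other sign, and 0 of these passed. Over all probe sets, calls between RA and RV controls numbered 748, with 251 to 1458 when arrays were left out and up to 2605 under array weights. For RA late HF against RA control they numbered 18, with 0 when only the groups compared were fitted, 1 without RA control 1, 425 without the library labelled RA late 3 and 2578 under array weights. With 3 arrays a group and SDs within groups of 1.51, 1.00 and 0.94 log2 units for ADIPOQ, RBP4 and FABP4, a difference of 1 log2 unit in these genes is close to or below the spread between replicates. CIDEC and LEP lie near the filter limit, where their order is not firm. The cause of these dependences was not tested.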
